A study of Macaca fascicularis with 10 samples.

Results

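The genes described here are 54 DNA repair genes of the cynomolgus macaque, Macaca fascicularis, of 14132 genes that had a probe set of their own on an Affymetrix Rhesus Macaque expression array. They were taken by symbol: the Fanconi anaemia (FANC), RAD, XRCC, ERCC, MSH, MLH, PARP and BRCA families, with ATM, ATR, CHEK1 and CHEK2 listed beside them. Some genes that carry such a name have another main role, among them RAD21 of the cohesin ring and several PARP enzymes. Where several probe sets carried a symbol alone, the one whose log2 signal was highest on average stood for the gene, and no measured difference between groups entered the choice. The 54 genes had 97 such probe sets, and 28 of them had 1. In the annotation used here no probe set carried the symbol alone for some genes of these families, among them ATM, ATR, XRCC2, RAD50, RAD52, RAD18, FANCA, FANCC, MSH3, XRCC1, PARP4 and ERCC6L2, so these genes were not analysed here.

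DNA repair is a set of pathways divided by the kind of damage. Homologous recombination copies the sister chromatid to mend a double-strand break, and uses BRCA1 and BRCA2, while end joining rejoins broken ends through the Ku proteins XRCC5 and XRCC6. The Fanconi anaemia pathway opens crosslinks between strands, mismatch repair corrects copying errors, nucleotide excision repair cuts out bulky lesions, and PARP1 marks single-strand breaks. Pluripotent stem cells divide rapidly and spend much of their cycle in S phase, when recombination and the checkpoint kinase CHEK1 are active.

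The study set 3 groups side by side. PG-haESC are embryonic stem cells from parthenogenetic blastocysts that the labels call haploid (5 arrays: lines MPH1, arrays 1 to 4, at passages 8, 11, 7 and 9, and MPH2, array 5, at passage 4). ICSI ESC are diploid embryonic stem cells from blastocysts made by sperm injection (3 arrays: lines MES1 at passage 12, MES2 at passage 4 and MES3 at passage 4). The third group is labelled diploid female somatic fibroblasts (2 arrays of 1 line, MF, at passages 14 and 15). The descriptions give the MPH1 arrays 2 codes, M1 (arrays 1 and 2) and M2 (arrays 3 and 4), and the line named in the titles was followed. The growth protocol places the haploid stem cells on feeder cells of unstated species, with Y27635 and Thiazovivin. Arrays of 1 line are different passages of that line, so p-values partly measure the spread between passages, and against the fibroblasts they rest on 1 line.

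The arrays carried the markers of their labels with exceptions that touch the results. All 6 pluripotency markers measured were higher on the arrays of both stem cell groups than on the fibroblast arrays. The fibroblast arrays carried fibroblast transcripts, with a summed signal over 10 markers of 212314 to 215070, but also keratinocyte transcripts, with a summed signal over 11 markers of 292728 to 300586 against 7174 to 11893 on the stem cell arrays. They are called fibroblast arrays here by their label only. Fibroblast markers summed to 10557 to 76710 on the PG-haESC arrays and to 15130 to 158599 on the ICSI ESC arrays, with the highest value on ICSI ESC array 1. Germ cell markers were below the array median on every array for 4 of 5 genes in PG-haESC and for 5 of 5 in the other groups.

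Of the 54 repair genes, 48 had a signal above the median of their array on at least 2 arrays and were tested, of 11639 genes tested, and 33 were above it on all 10 arrays. FANCD2OS, MSH4, PARP11, RAD21L1, RAD9B and XRCC3 did not pass that filter. The tested genes BRCA1, BRCA2, ERCC6L, ERCC8, FANCB, RAD54B and RAD54L passed it through the stem cell arrays alone, and none passed through the fibroblast arrays alone. Groups were compared with limma on log2 signal over all 10 arrays, with the cell line as a random block. A gene was called where the p-value adjusted over all 34139 probe sets tested was under 0.05. Where every array of the dimmer group was at or below its array median, the fold is given as a lower bound, with those signals raised to the median.

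Repair genes were higher in both kinds of stem cell than in the fibroblasts more often than they were lower. Against the fibroblasts, 25 of 48 (52.1%) were called in PG-haESC, 21 higher and 4 lower, where 40.3% of all genes tested were called (23.0% higher, 17.3% lower). In ICSI ESC 26 of 48 (54.2%) were called, 21 higher and 5 lower, where 39.6% of all genes were called (22.6% higher and 17.0% lower). Of these genes BRCA1, BRCA2, ERCC6L, ERCC8, FANCB, RAD54B and RAD54L passed the filter on dim probe sets through the stem cell arrays alone, so they could hardly be called lower, and they gave 6 of the higher calls in PG-haESC and 5 in ICSI ESC. Among the 41 genes above the array median on at least 1 array of each side, a count chosen after the values were seen, 15 were higher and 4 lower in PG-haESC (36.6% and 9.76%) and 16 higher and 5 lower in ICSI ESC (39.0% and 12.2%). Over the 9770 genes of that kind the shares were 23.4% higher and 18.2% lower in PG-haESC and 23.0% higher and 18.2% lower in ICSI ESC. The higher calls numbered 18 to 22 in PG-haESC and 18 to 21 in ICSI ESC with 1 array left out. The lower calls depended more on single arrays. In PG-haESC they numbered 1 without fibroblast array 1 and 7 without ICSI ESC array 1. In ICSI ESC they numbered 2 without fibroblast array 1 and 1 without fibroblast array 2. Leaving out array 1 of ICSI ESC gave 8, and leaving out array 2 gave 3. The shares over all genes with 1 array left out are not given here, so whether these shifts are particular to repair genes was not tested. With all arrays, the shares called over all probe sets tested were 33.0% and 32.7%. The median log2 change of the repair genes was 0.45 in PG-haESC and 0.67 in ICSI ESC, beside 0.06 and 0.08 over all genes tested. Centring each array on its median moved the median of all genes by 0.33 and 0.28 on the log2 scale. It left 21 higher and 2 lower in PG-haESC and 20 higher and 2 lower in ICSI ESC. Thus 90.9% rather than 80.8% of the ICSI ESC calls were higher. Over all genes the lower share fell under that centring too. It left 22.9% higher and 10.7% lower in PG-haESC, and 21.2% and 10.8% in ICSI ESC. Between PG-haESC and ICSI ESC none of the 48 was called.

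Both comparisons share the fibroblast arrays, so their calls are not independent of each other. Of the 48 genes, 20 were called higher in both and 3 lower in both (ERCC5, PARP10 and PARP6). FANCB (higher) and PARP3 (lower) were called in PG-haESC alone, FANCL (higher), PARP12 and PARP16 (lower) in ICSI ESC alone, and 20 in neither. For those 5 genes the direct difference between the stem cell groups was not called. The shares called in both comparisons over all genes tested were not counted, so these joint counts are a description only. Bulk arrays cannot tell fewer cells of a type from less RNA per cell, and the 10 proliferation markers measured, which include MKI67, PCNA, MCM and cyclin genes, were higher too. All 10 were called higher in both stem cell groups, with median log2 changes of 3.0 and 3.26 and a summed signal of 68385 to 88847 in PG-haESC, 64540.2 to 83135 in ICSI ESC and 7841 to 8027 in the fibroblasts. The part of proliferation in the repair gene differences was not tested.

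**Figure D1:**
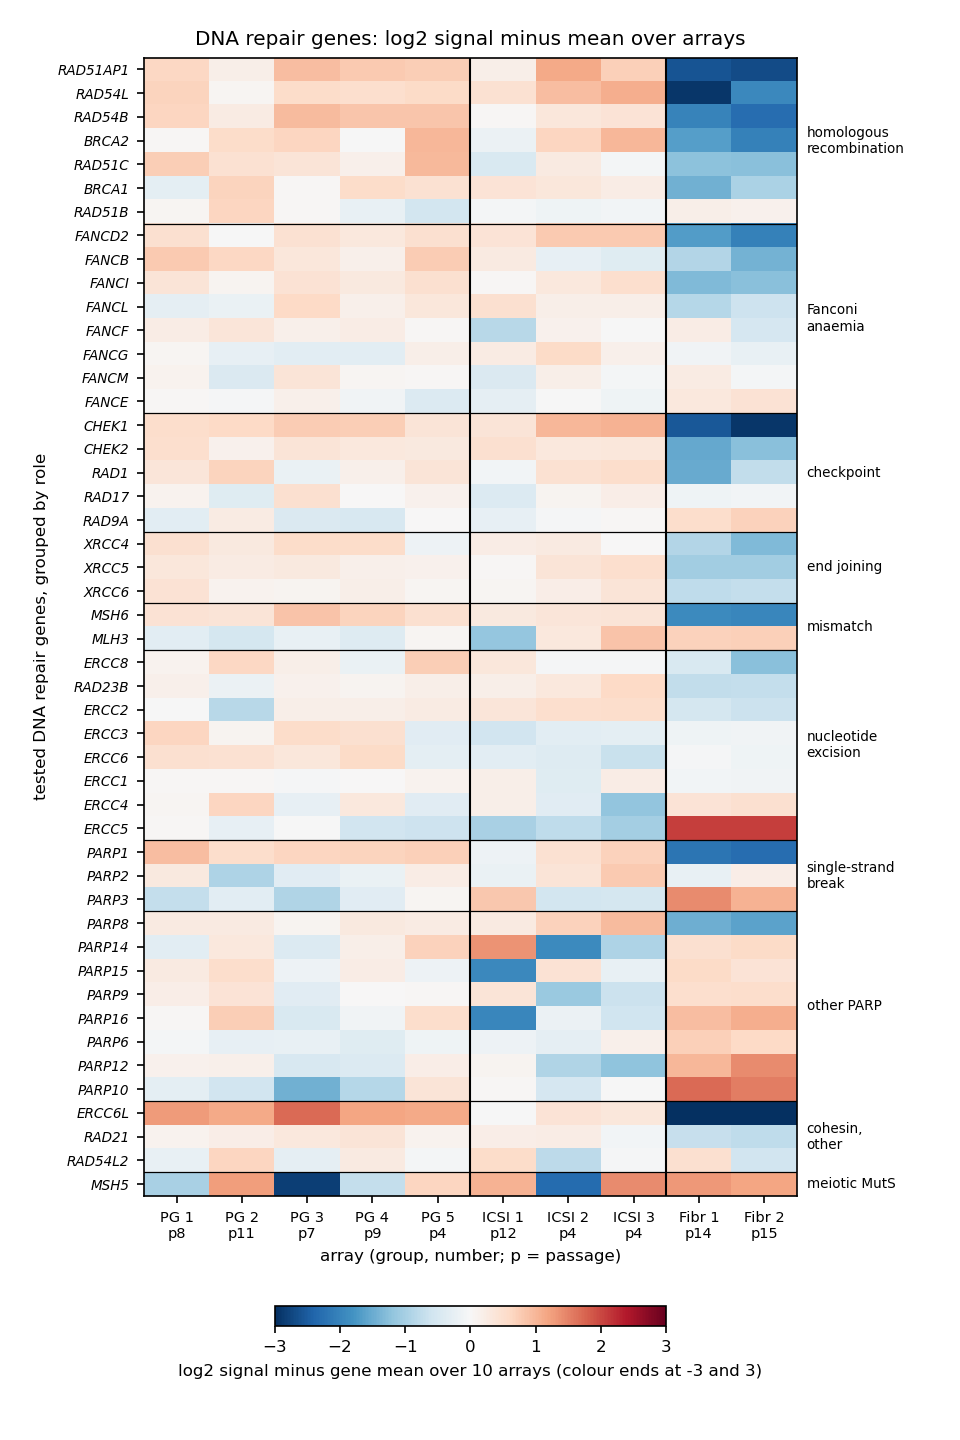
The log2 signal of the 48 tested repair genes (rows, grouped by role) on each of the 10 arrays (columns, with passage), minus the gene's mean over the arrays; red is above and blue below that mean, and colours end at -3 and 3. The fibroblast columns are blue for most recombination, Fanconi, checkpoint and end joining genes and red for ERCC5 and several PARP genes, while the 2 stem cell groups look alike in most rows apart from ERCC6L.

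In homologous recombination 6 of 7 tested genes were called higher in each stem cell group, where 23.0% and 22.6% of all genes tested were higher. Of the 6, BRCA1, BRCA2, RAD54B and RAD54L passed the filter through the stem cell arrays alone, so their calls lend no support to the count, and RAD51AP1 and RAD51C did not. RAD51AP1, which promotes strand invasion into a duplex, had a signal of 2313, 1698, 2830.5, 2590.4 and 2511 on PG-haESC arrays 1 to 5, 1710.2, 3294 and 2467 on ICSI ESC arrays 1 to 3 and 249.5 and 233 on the fibroblast arrays. Every stem cell array was above both fibroblast arrays, and the stem cell groups overlapped. The log2 change was 3.30 ± 0.31 (SE; adjusted p = 8.86e-06) in PG-haESC and 3.32 ± 0.32 (SE; adjusted p = 9.79e-06) in ICSI ESC. RAD54L and RAD54B are motor proteins that act in strand exchange. RAD54L had a signal of 471, 307, 436, 416 and 441 on PG-haESC arrays 1 to 5, 404, 565 and 632 on ICSI ESC arrays 1 to 3 and 39.3 and 77.5 on the fibroblast arrays, with both fibroblast values below the array median. It was at least 3.54-fold higher in PG-haESC (adjusted p = 0.000194) and at least 4.53-fold higher in ICSI ESC (adjusted p = 9.58e-05). RAD54B had signals of 558 to 909.5 in PG-haESC, 486 to 622 in ICSI ESC and 96.9 to 118 in the fibroblasts. It was at least 6.63-fold (adjusted p = 2.41e-05) and at least 4.87-fold (adjusted p = 0.000102) higher in the stem cells, again with no overlap with the fibroblast arrays.

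BRCA2 acts on resected single-stranded DNA, and BRCA1 promotes the resection that precedes it. The BRCA2 signal was 180.4, 255, 272, 172 and 350.2 on PG-haESC arrays 1 to 5, 154, 274 and 350.5 on ICSI ESC arrays 1 to 3 and 55.7 and 42.8 on the fibroblast arrays. The stem cell groups overlapped, and all their arrays were above the fibroblast arrays, both of which were below their median. BRCA2 was at least 2.05-fold higher in PG-haESC (adjusted p = 0.00328) and at least 2.12-fold in ICSI ESC (adjusted p = 0.00384). BRCA1 had 139.7, 272, 177, 252 and 236 on PG-haESC arrays 1 to 5, 228, 216 and 201 on ICSI ESC arrays 1 to 3 and 63.7 and 88.8 on the fibroblast arrays. It was at least 1.81-fold and at least 1.85-fold higher, with adjusted p = 0.0244 and 0.0247. Both of these genes were below the array median in the fibroblasts, and their calls were lost where signals below the median were set to it (adjusted p = 0.0738 and 0.0874 for BRCA2, 0.115 and 0.114 for BRCA1). The BRCA1 calls were also lost without fibroblast array 1 (adjusted p = 0.106 and 0.107) and, in PG-haESC, without PG-haESC array 2 (adjusted p = 0.0537).

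RAD51C, RAD51B and XRCC3 act in recombination complexes, and RAD51C was the one called. RAD51C had a signal of 1537, 1264, 1201, 1017 and 1802 on PG-haESC arrays 1 to 5, 670, 1111 and 873 on ICSI ESC arrays 1 to 3 and 389.6 and 381 on the fibroblast arrays. Both fibroblast values were below all stem cell values. The log2 change was 1.86 ± 0.30 (SE; adjusted p = 0.000494) in PG-haESC and 1.17 ± 0.30 (SE; adjusted p = 0.0105) in ICSI ESC, and the probe set of RAD51C not chosen was called in the same direction in both. The ICSI ESC call was lost with passage as a covariate (adjusted p = 0.211). RAD51B was the recombination gene not called, with 114 to 261 in PG-haESC, 153 to 161 in ICSI ESC and 183 to 190.4 in the fibroblasts, and log2 changes of -0.24 (95% interval -1.21 to 0.73) and -0.24 (-1.22 to 0.74). XRCC3 stayed below the median of every array, at 20.3 to 92.5, 23.6 to 73.4 and 5.96 to 39.8, so no change could be measured.

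In the Fanconi anaemia pathway the FANCD2 and FANCI pair, which is ubiquitinated at a crosslink and clamps the DNA, was higher in both stem cell groups, while most of the core complex that modifies it was not called. FANCD2 had a signal of 747, 530.2, 734, 666 and 745 on PG-haESC arrays 1 to 5, 714, 924 and 929 on ICSI ESC arrays 1 to 3 and 168 and 132 on the fibroblast arrays. Its log2 change was 2.21 ± 0.28 (SE; adjusted p = 9.05e-05) in PG-haESC and 2.51 ± 0.29 (SE; adjusted p = 3.88e-05) in ICSI ESC. FANCI ran from 840 to 1101 in PG-haESC, 812 to 1127 in ICSI ESC and 314 to 333 in the fibroblasts. These ranges left the fibroblast arrays well apart from the stem cells and the stem cell groups overlapping. The FANCI log2 changes were 1.65 ± 0.24 (SE; adjusted p = 0.000212) and 1.58 ± 0.24 (SE; adjusted p = 0.000325), and 2 of its 3 tested probe sets were called higher in each comparison. Of the core complex, FANCB is the X-linked subunit and FANCL the ubiquitin ligase. FANCB had 169, 149.9, 124, 109.6 and 165 on PG-haESC arrays 1 to 5, 118, 82.1 and 75.8 on ICSI ESC arrays 1 to 3 and 53.1 and 36.4 on the fibroblast arrays. Both fibroblast values were below the array median, and FANCB was at least 1.22-fold higher in PG-haESC (adjusted p = 0.0294) and not called in ICSI ESC (log2 change 1.04 ± 0.55 (SE; adjusted p = 0.177)). Its other tested probe set was called higher in both, also with both fibroblast signals below the array median.

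The calls of FANCB and FANCL depended on single arrays, and neither held under all alternative analyses. FANCL had a signal of 518 to 946 in PG-haESC, 705 to 877 in ICSI ESC and 345 to 406 in the fibroblasts. Its log2 change was 0.89 ± 0.33 (SE; adjusted p = 0.0542) in PG-haESC, short of the threshold, and 1.02 ± 0.33 (SE; adjusted p = 0.0322) in ICSI ESC. The FANCB call was lost when any of PG-haESC arrays 1, 2 and 5 or fibroblast array 2 was left out (adjusted p = 0.052, 0.059, 0.0537 and 0.116). It was lost as well with low signals raised to the array median, where the log2 change was 0.32 (adjusted p = 0.557), with arrays averaged per line (0.112) and with passage as a covariate (0.0622), so that it held in 16 of 23 alternative analyses. The FANCL call was lost without fibroblast array 1 or 2, ICSI ESC array 3 or PG-haESC array 2 (adjusted p = 0.125, 0.0583, 0.0534 and 0.0512). This ICSI ESC call held in 16 of 24 alternative analyses, over which the adjusted p ran up to 0.154. In PG-haESC, FANCL instead passed without ICSI ESC array 1 (adjusted p = 0.0265) or PG-haESC array 1 (adjusted p = 0.0402). The other core subunits FANCE, FANCF and FANCG and the translocase FANCM were not called, with log2 changes from -0.50 (FANCE) to 0.32 (FANCF) in PG-haESC and from -0.51 (FANCE) to 0.49 (FANCG) in ICSI ESC. FANCE lay below the fibroblast arrays on every stem cell array, yet its 95% intervals of -1.02 to 0.03 and -1.04 to 0.02 included no change.

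Of the 5 checkpoint genes tested, CHEK1, CHEK2 and RAD1 were called higher in both stem cell groups. The higher shares over all genes tested were 23.0% in PG-haESC and 22.6% in ICSI ESC. CHEK1 is the kinase downstream of ATR that holds the cycle while replication forks are stalled. Its signal was 1674, 1742, 1962, 1943 and 1526 on PG-haESC arrays 1 to 5, 1521, 2292 and 2404 on ICSI ESC arrays 1 to 3 and 198 and 154 on the fibroblast arrays. The fibroblast arrays were far below the stem cell arrays, and the PG-haESC values lay between the lowest and highest of ICSI ESC. The log2 change was 3.30 ± 0.26 (SE; adjusted p = 2.03e-06) in PG-haESC and 3.54 ± 0.26 (SE; adjusted p = 1.41e-06) in ICSI ESC. CHEK2, the kinase downstream of ATM at double-strand breaks, had 1409, 1085, 1304, 1228 and 1215 on PG-haESC arrays 1 to 5, 1372, 1227 and 1263 on ICSI ESC arrays 1 to 3 and 342 and 417 on the fibroblast arrays. The stem cell arrays were tightly grouped, with an SD of 0.14 in PG-haESC and 0.08 in ICSI ESC on the log2 scale, and the log2 changes were 1.71 ± 0.22 (SE; adjusted p = 8.41e-05) and 1.77 ± 0.22 (SE; adjusted p = 7.44e-05).

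The clamp that brings signalling proteins to damaged DNA is made of RAD9A, RAD1 and HUS1, and RAD17 loads it. RAD1 was higher by 1.42 ± 0.43 (SE; adjusted p = 0.0229) and 1.42 ± 0.43 (SE; adjusted p = 0.024) on the log2 scale, but 1 of its 5 tested probe sets passed, and averaged over them its adjusted p was 0.25 and 0.248. The RAD1 calls were lost without fibroblast array 1 (adjusted p = 0.132 and 0.137). In PG-haESC the call was also lost without PG-haESC array 2 (0.0523), and in ICSI ESC without ICSI ESC array 2 or 3 (0.0579 and 0.0676). RAD17 was not called, with log2 changes of 0.18 (95% interval -0.45 to 0.81) and 0.06 (-0.58 to 0.69). RAD9A was not called, at 264 to 438 and 311 to 381 in the stem cells against 533 to 594 in the fibroblasts, with log2 changes of -0.77 ± 0.33 (SE; adjusted p = 0.0935) and -0.69 ± 0.33 (SE; adjusted p = 0.137). In PG-haESC RAD9A passed without ICSI ESC array 1 (adjusted p = 0.0428).

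All 3 end joining genes were higher in both stem cell groups, where 23.0% and 22.6% of all genes tested were higher. XRCC5 and XRCC6 encode Ku80 and Ku70, which together bind a broken end. XRCC5 had a signal of 19982, 18629, 19117, 17347 and 17195 on PG-haESC arrays 1 to 5, 16134, 20573 and 22305 on ICSI ESC arrays 1 to 3 and 7684 and 7579 on the fibroblast arrays. XRCC6 had 28617, 22780, 22248, 23669 and 21793 on PG-haESC arrays 1 to 5, 21753, 24347 and 27289.5 on ICSI ESC arrays 1 to 3 and 12342 and 12752 on the fibroblast arrays. No stem cell array came near the fibroblast arrays in either gene, and the stem cell groups overlapped in both. XRCC5 changed by 1.26 ± 0.18 (SE; adjusted p = 0.000227) and 1.35 ± 0.18 (SE; adjusted p = 0.000146) on the log2 scale and XRCC6 by 0.90 ± 0.19 (SE; adjusted p = 0.00298) and 0.96 ± 0.19 (SE; adjusted p = 0.00214). All tested probe sets of both genes, 2 for XRCC5 and 3 for XRCC6, were called higher. XRCC4, the scaffold of the ligase that seals the ends, had signals of 538 to 886 in PG-haESC, 611 to 721 in ICSI ESC and 240 to 327 in the fibroblasts, with log2 changes of 1.37 ± 0.29 (SE; adjusted p = 0.00297) and 1.27 ± 0.29 (SE; adjusted p = 0.00508). Its chosen probe set has a name that marks possible cross-hybridisation, and its other tested probe set was called in the same direction.

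In mismatch repair MSH6, which recognises a mispaired base, was higher in both stem cell groups. Its signal was 9077, 8819.7, 12175, 10674 and 9441 on PG-haESC arrays 1 to 5, 8323, 8723 and 8891 on ICSI ESC arrays 1 to 3 and 1805 and 1740.2 on the fibroblast arrays. The log2 change was 2.48 ± 0.19 (SE; adjusted p = 1.95e-06) in PG-haESC and 2.29 ± 0.19 (SE; adjusted p = 4.09e-06) in ICSI ESC, with both tested probe sets called. MLH3, a MutL protein, had signals of 212 to 316 in PG-haESC and 138 to 549 in ICSI ESC, against 495 to 498 in the fibroblasts, and was not called (log2 changes -0.93 ± 0.51 (SE; adjusted p = 0.185) and -0.70 ± 0.51 (SE; adjusted p = 0.332)). With passage as a covariate MLH3 was called lower in both (adjusted p = 0.00438 and 0.0087), and in PG-haESC also without ICSI ESC array 1 (adjusted p = 0.0157). MSH5, which acts with MSH4 in meiotic crossing over, was scattered over 7.55 to 127 in PG-haESC and 10.8 to 142 in ICSI ESC and was not called, and MSH4 was below the median of every array.

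**Figure D2:**
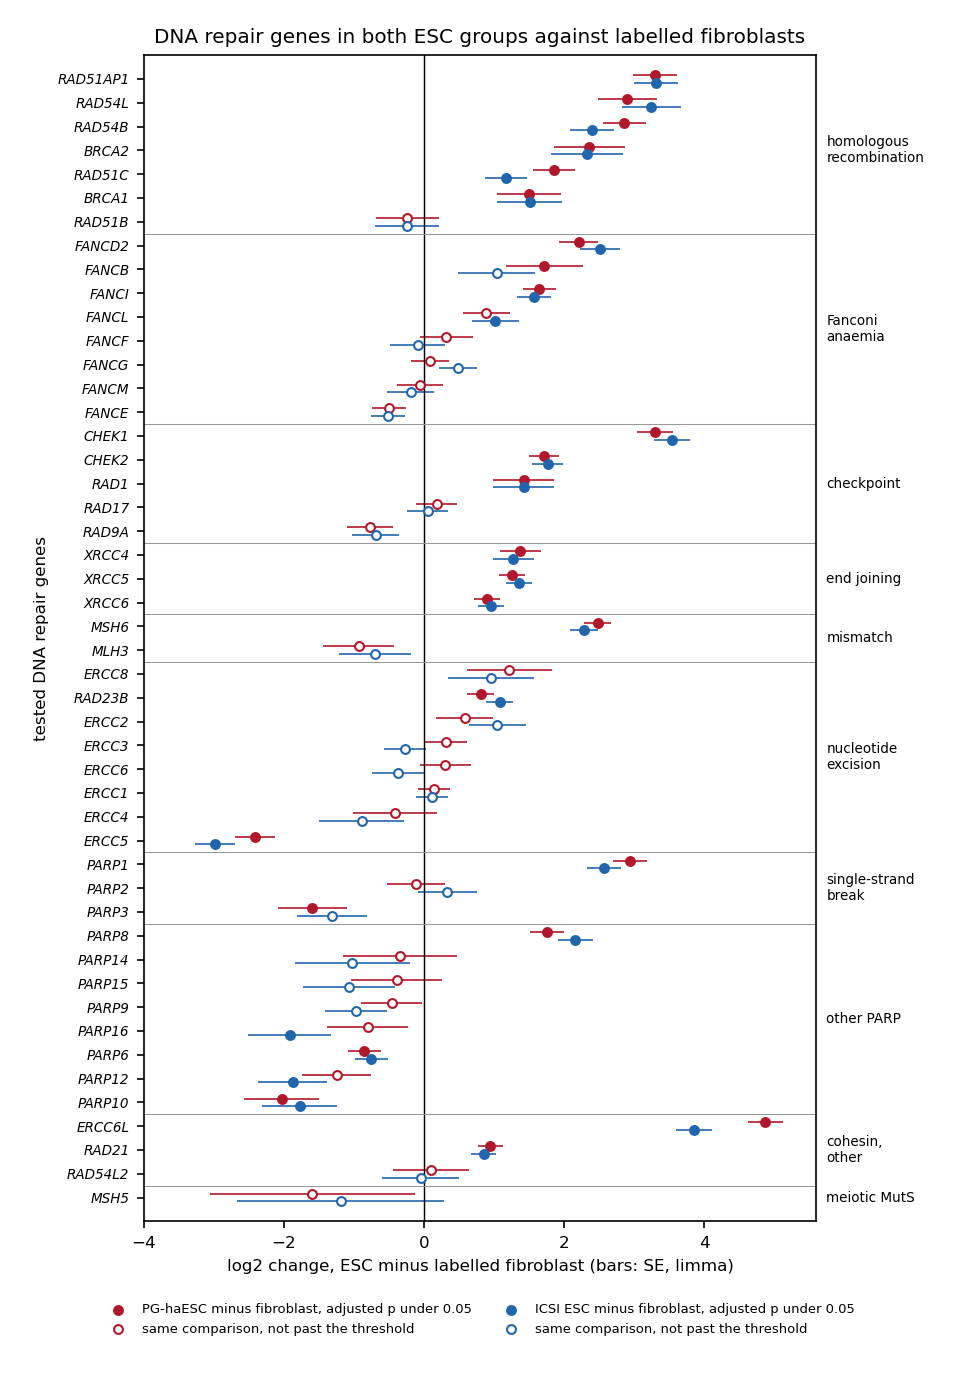
The log2 change of each of the 48 tested repair genes against the fibroblast arrays in PG-haESC (red) and ICSI ESC (blue), by role, with bars for the SE from limma; filled points had an adjusted p under 0.05. ERCC6L, CHEK1 and RAD51AP1 lie to the far right, ERCC6L with fibroblast signals below the array median, and ERCC5 to the far left, and both comparisons use the same fibroblast arrays.

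In nucleotide excision repair 1 gene was called higher and 1 lower of 8 tested in each comparison. Over all genes tested 23.0% were higher and 17.3% lower in PG-haESC, and 22.6% and 17.0% in ICSI ESC. RAD23B, which helps XPC find distorted DNA, ran from 9327 to 11765 in PG-haESC and 11843 to 15715 in ICSI ESC against 6269.5 to 6409 in the fibroblasts. It was higher by 0.81 ± 0.19 (SE; adjusted p = 0.00535) and 1.08 ± 0.19 (SE; adjusted p = 0.000872) on the log2 scale. All 3 tested probe sets of RAD23B were called higher in PG-haESC and 2 of 3 in ICSI ESC. Their log2 changes in ICSI ESC ran from 0.35 to 1.08. ERCC5, which encodes the nuclease XPG that cuts on the 3′ side of a lesion, had a signal of 676, 561, 658, 441 and 428 on PG-haESC arrays 1 to 5, 339, 392 and 328 on ICSI ESC arrays 1 to 3 and 2773 and 2796 on the fibroblast arrays. Every stem cell array was far below both fibroblast arrays, and the log2 change was -2.41 ± 0.28 (SE; adjusted p = 4.8e-05) in PG-haESC and -2.98 ± 0.29 (SE; adjusted p = 1.07e-05) in ICSI ESC. The probe sets of ERCC5 disagreed. Of 5 tested, 1 was called lower in PG-haESC and 3 in ICSI ESC, their log2 changes ran from -2.41 to 0.78 and from -2.98 to 1.35, and with the mean of the probe sets the adjusted p was 0.137 and 0.107.

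The other 6 excision genes were not called against the fibroblasts. They include ERCC1 and ERCC4, the paired nuclease on the 5′ side, ERCC2 and ERCC3, the helicases XPD and XPB of TFIIH, and ERCC6 and ERCC8, the CSB and CSA proteins of transcription-coupled repair. ERCC1 varied little, at 897 to 980.5, 715 to 1074 and 849 to 862, with 95% intervals of -0.35 to 0.64 and -0.39 to 0.61 for its log2 change. ERCC2 had 274, 158, 314, 317 and 332 on PG-haESC arrays 1 to 5, 359, 393 and 401 on ICSI ESC arrays 1 to 3 and 193 and 178 on the fibroblast arrays. All 3 ICSI ESC values were above the others, and the change in ICSI ESC was 1.05 ± 0.41 (SE; adjusted p = 0.0688). It passed without PG-haESC array 2, which stood apart from its group (adjusted p = 0.0238). ERCC4 and ERCC8 were near or below the array medians and had wide intervals, such as -0.10 to 2.54 for ERCC8 in PG-haESC.

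Of PARP1, PARP2 and PARP3, which respond to strand breaks, PARP1 was called higher in both stem cell groups, PARP3 lower in PG-haESC, and PARP2 in neither. PARP1, which makes poly(ADP-ribose) at single-strand breaks, had a signal of 12962, 9899, 10630.1, 10936 and 11205 on PG-haESC arrays 1 to 5, 6163, 9323 and 11116 on ICSI ESC arrays 1 to 3 and 1492 and 1406 on the fibroblast arrays. The stem cell arrays were all far above the fibroblast arrays and overlapped each other, and the log2 change was 2.94 ± 0.24 (SE; adjusted p = 3.26e-06) in PG-haESC and 2.57 ± 0.25 (SE; adjusted p = 1.04e-05) in ICSI ESC. PARP2 was not called, at 663 to 1537 in PG-haESC, 1083 to 2149.6 in ICSI ESC and 1080.5 to 1427 in the fibroblasts. Of its 3 tested probe sets, 1 not chosen was called higher in ICSI ESC (log2 change 0.96, adjusted p = 0.0264). None was called in PG-haESC. The log2 changes of the 3 ran from -0.37 to 0.96 in ICSI ESC and from -0.11 to 0.74 in PG-haESC. PARP3 had 144, 189, 127, 187 and 248 on PG-haESC arrays 1 to 5, 417, 162 and 165 on ICSI ESC arrays 1 to 3 and 629.8 and 488 on the fibroblast arrays. It was lower on every stem cell array, with log2 changes of -1.60 ± 0.50 (SE; adjusted p = 0.0258) and -1.31 ± 0.50 (SE; adjusted p = 0.0624). The PARP3 call in PG-haESC was lost without fibroblast array 1 or 2 (adjusted p = 0.116 and 0.051), and PARP3 passed in ICSI ESC without ICSI ESC array 1 (adjusted p = 0.00477). The PG-haESC call held in 18 of 23 alternative analyses, over which the adjusted p ran up to 0.267.

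The remaining PARP genes encode enzymes that mostly attach single ADP-ribose units, and many serve in antiviral responses (PARP9, PARP10, PARP12 and PARP14) or at the endoplasmic reticulum (PARP16). Of 8 tested, PARP8 was the gene called higher, at 869 to 1008 in PG-haESC and 985 to 1589.5 in ICSI ESC against 273 to 299, with log2 changes of 1.76 ± 0.25 (SE; adjusted p = 0.000164) and 2.16 ± 0.25 (SE; adjusted p = 4.02e-05). PARP10 and PARP6 were called lower in PG-haESC, and PARP10, PARP12, PARP16 and PARP6 in ICSI ESC. Over all genes tested 23.0% were higher and 17.3% lower in PG-haESC, and 22.6% and 17.0% in ICSI ESC. PARP10 had 154, 127, 68.8, 104 and 245 on PG-haESC arrays 1 to 5, 193, 132 and 184 on ICSI ESC arrays 1 to 3 and 605 and 545 on the fibroblast arrays. All stem cell values were below both fibroblast values, and the log2 changes were -2.03 ± 0.54 (SE; adjusted p = 0.0113) and -1.78 ± 0.54 (SE; adjusted p = 0.0238). PARP12 changed by -1.25 ± 0.49 (SE; adjusted p = 0.0709) and -1.88 ± 0.50 (SE; adjusted p = 0.0117), PARP16 by -0.81 ± 0.58 (SE; adjusted p = 0.33) and -1.92 ± 0.59 (SE; adjusted p = 0.0247), and PARP6 by -0.85 ± 0.23 (SE; adjusted p = 0.013) and -0.75 ± 0.23 (SE; adjusted p = 0.0257). PARP9, PARP14 and PARP15 were not called, with log2 changes between -0.46 and -0.34 in PG-haESC and between -1.07 and -0.97 in ICSI ESC.

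These lower PARP calls depended on single arrays and did not hold under all alternative analyses. Over the alternatives the adjusted p reached 0.344 in PG-haESC and 0.419 in ICSI ESC for PARP6, and 0.187 in ICSI ESC for PARP12. PARP10 and PARP6 had 2 tested probe sets each, of which 1 was called, and with the mean of the probe sets PARP10 had an adjusted p of 0.322 and 0.162 and PARP6 of 0.133 and 0.261. Without fibroblast array 1 the calls of PARP10 (adjusted p = 0.0515 and 0.0929), PARP6 (0.0676 and 0.112) and PARP16 (0.0659) were lost. Without fibroblast array 2 the ICSI ESC calls of PARP10 (0.0691), PARP12 (0.0706), PARP16 (0.0917) and PARP6 (0.0653) were lost. Without ICSI ESC array 2 those of PARP10 (0.0611) and PARP6 (0.0691) were lost. ICSI ESC array 1, the array with the fibroblast marker sum of 158599, held the highest stem cell value of PARP14 (348) and PARP3 (417) and the lowest of PARP15 (37.2) and PARP16 (51.6). Without it PARP9 (0.00592) and PARP14 (0.0169) were called lower in ICSI ESC and PARP12 (0.0167) in PG-haESC. The part of fibroblast transcripts in these values was not tested.

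ERCC6L encodes PICH, a translocase on the ultrafine bridges that link sister chromatids in anaphase and not an excision repair factor. Its signal was 3197, 2896, 4220.2, 2996 and 2902 on PG-haESC arrays 1 to 5, 1295, 1744 and 1668 on ICSI ESC arrays 1 to 3 and 118 and 98.1 on the fibroblast arrays. Both fibroblast values were below the median of their array, and all PG-haESC values were above all ICSI ESC values. ERCC6L was at least 27.7-fold higher in PG-haESC (adjusted p = 1.05e-07) and at least 13.4-fold higher in ICSI ESC (adjusted p = 6.37e-07). RAD21, the subunit that closes the cohesin ring, ran from 8521 to 10416 and 7563 to 9299 in the stem cells against 4653 to 4900, with log2 changes of 0.95 ± 0.18 (SE; adjusted p = 0.0014) and 0.85 ± 0.18 (SE; adjusted p = 0.00302). RAD54L2 was not called, at 171 to 318, 119 to 297 and 138 to 284. RAD21L1, a meiotic cohesin subunit, stayed below the median of every array.

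The comparison of PG-haESC with ICSI ESC asks whether parthenogenetic cells labelled haploid differ from diploid stem cells in repair gene expression. None of 48 repair genes was called by limma, where 0.576% of all genes tested (67 of 11639) and 0.451% of probe sets were called. At an unadjusted p under 0.05 there were 6, ERCC6L, RAD51C, ERCC5, ERCC3, PARP16 and ERCC6, a share of 12.5%, beside 8.79% of all genes. The arrays of the groups did not overlap for 5 genes (ERCC5, ERCC6 and ERCC6L above, ERCC2 and RAD23B below in PG-haESC), a share of 10.4%, beside 8.29% of all genes. The median log2 change was 0.03, beside -0.02 over all genes. The 95% interval of the change lay within 2-fold either way for 25 of the 48 genes. Intervals had a median half-width of 0.59 on the log2 scale and ranged from 0.32 to 2.62, so that a change of 2-fold was not excluded for the other 23.

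For several recombination, Fanconi and checkpoint genes the 95% interval excluded a change of 2-fold between the stem cell groups. The log2 change from ICSI ESC to PG-haESC was -0.01 for BRCA1 (95% interval -0.83 to 0.81), 0.03 for BRCA2 (-0.87 to 0.94) and -0.02 for RAD51AP1 (-0.58 to 0.54). It was -0.24 for CHEK1 (-0.70 to 0.23) and -0.05 for CHEK2 (-0.44 to 0.34). For FANCD2 it was -0.30 (-0.81 to 0.20) and for FANCI 0.07 (-0.35 to 0.50). These 7 intervals excluded a change of 2-fold in either direction, as did those of the Ku genes XRCC5 (-0.42 to 0.23) and XRCC6 (-0.40 to 0.28). Those of the recombination genes RAD51C (0.69, 0.15 to 1.23), RAD54B (0.46, -0.09 to 1.02) and RAD54L (-0.34, -1.08 to 0.40) did not exclude it.

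ERCC6L came nearest to a difference between the stem cell groups. Its lowest PG-haESC value, 2896, was above its highest ICSI ESC value, 1744, and the log2 change was 1.02 ± 0.21 (SE; adjusted p = 0.0588), just short of the threshold. It passed in 8 of 24 alternative analyses, over which the adjusted p ran from 0.0116 to 0.691. ERCC6L and FANCB are the 2 repair genes tested that the T2T-MFA8v1.1 assembly places on the X chromosome. FANCB differed by 0.68 ± 0.45 (SE; adjusted p = 0.888), with overlapping arrays. The other tested probe set of FANCB read 221 to 307 in PG-haESC and 63.9 to 118 in ICSI ESC, without overlap. Its log2 change was 1.71 and was not called either (adjusted p = 0.266). Over all 380 X-linked genes tested the median log2 change between these groups was 0.67 and 36 were called, while over 10168 autosomal genes it was -0.03 and 20 were called. Both X-linked repair genes thus had changes at or above the X-linked median, which is a description of 2 genes.

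The other genes below the unadjusted threshold had modest changes. RAD51C differed by 0.69 ± 0.25 (SE; adjusted p = 0.454), with 1537, 1264, 1201, 1017 and 1802 in PG-haESC and 670, 1111 and 873 in ICSI ESC, so that the arrays overlapped. ERCC5 differed by 0.58 ± 0.23 (SE; adjusted p = 0.575), ERCC3 by 0.59 ± 0.24 (SE; adjusted p = 0.591) and ERCC6 by 0.67 ± 0.30 (SE; adjusted p = 0.648). PARP16 differed by 1.11 ± 0.48 (SE; adjusted p = 0.618), and its lowest value was on ICSI ESC array 1. None of these had an adjusted p under 0.05 in any alternative analysis.

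**Figure D3:**
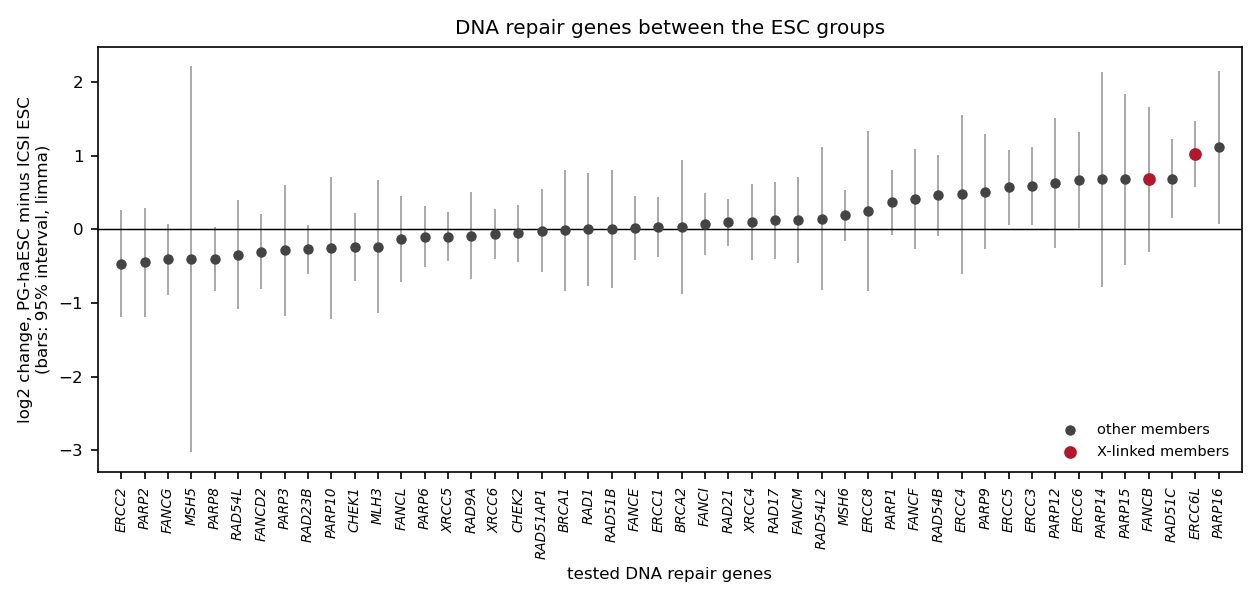
The log2 change of each of the 48 tested repair genes between PG-haESC and ICSI ESC, in order of the change, with 95% intervals from limma; red points are the X-linked genes FANCB and ERCC6L. Most intervals include 0, that of ERCC6L runs from 0.57 to 1.47, and the interval of MSH5 is the widest.

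Within PG-haESC, line and group partly coincide, since 4 of 5 arrays are of line MPH1. For 8 of 48 repair genes (16.7%) all MPH1 arrays lay apart from all other stem cell arrays, MPH2 included, beside 8.2% of all genes tested. They were above for ERCC3, ERCC5, ERCC6, FANCF and XRCC4 and below for ERCC2, FANCG and RAD23B. These genes were singled out after their values were seen. ERCC3 had a geometric mean signal of 1637 in MPH1, against 951 in MPH2 and 918 in ICSI ESC. ERCC6 had 336 in MPH1, 198 in MPH2 and 179 in ICSI ESC. In these excision repair genes the MPH2 array sat with the ICSI ESC arrays, and with 1 array of MPH2 a difference between haploid lines cannot be told apart from one between arrays.

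**Figure D4:**
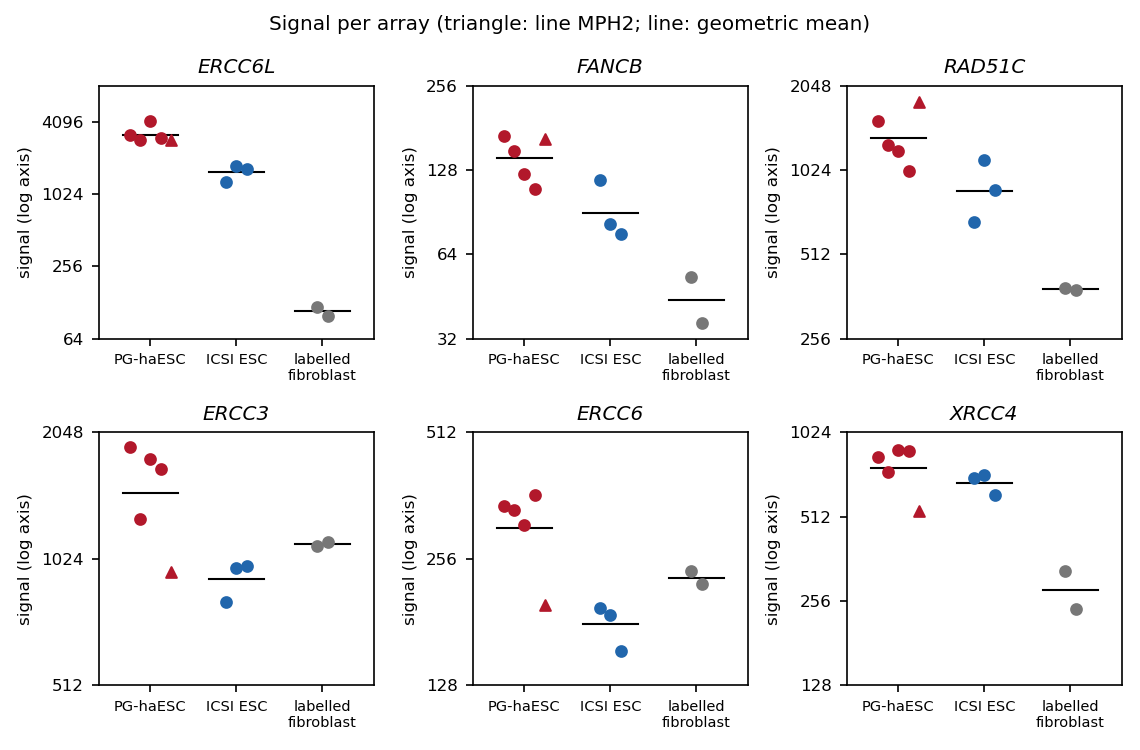
Signal per array on a log axis for ERCC6L, FANCB, RAD51C, ERCC3, ERCC6 and XRCC4 in PG-haESC (red; circles MPH1, triangle MPH2), ICSI ESC (blue) and the fibroblast arrays (grey), with lines at the geometric means. ERCC6L separates all 3 groups, whereas in ERCC3 and ERCC6 the MPH2 triangle lies at the level of ICSI ESC, and in XRCC4 it is the lowest stem cell array.

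Genes of the same pathways with other names were read from 7 lists of 108 genes, of which 75 were measured and 74 tested. In PG-haESC 37 were called higher and 10 lower than in the fibroblasts (63.5% called), and in ICSI ESC 33 higher and 10 lower (58.1%). All genes tested had 40.3% and 39.6% called. The higher shares of the lists, 50% and 44.6%, stood beside 23.0% and 22.6% of all genes, and their lower share of 13.5% in each comparison stood beside 17.3% and 17.0%. Some of the genes called higher, among them BRIP1 and EME1, passed the filter through the stem cell arrays alone, so they could hardly be called lower. The shares without such genes were not counted, so the higher shares lend no support here. Fanconi and recombination partners showed 14 higher and 1 lower of 22 in PG-haESC and 12 higher and 2 lower in ICSI ESC. Among them RMI2, of the complex that dissolves joint molecules, changed by 4.13 and 3.82 on the log2 scale. UBE2T, the conjugating enzyme that works with FANCL, changed by 3.45 and 3.36, and the helicase RECQL4 by 2.55 and 2.40. The nuclease FAN1 was lower (-2.07 and -1.66). The checkpoint list had 5 higher and 1 lower of 10 in PG-haESC and 4 and 1 in ICSI ESC, among them the kinase WEE1 (3.04 and 3.60) and the fork protection factor TIPIN (2.48 and 2.79).

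Base excision repair partners, which remove small base lesions, had 6 higher and 1 lower of 12 in each stem cell group. Over all genes tested 23.0% were higher and 17.3% lower in PG-haESC, and 22.6% and 17.0% in ICSI ESC. The uracil glycosylase UNG changed by 3.10 and 2.98 and APTX, which cleans up abortive ligation ends, by 2.31 and 2.27, while the glycosylase NEIL1 was lower (-2.53 and -2.26). End joining partners had 3 higher and 1 lower of 8 in each. RIF1 (1.91 and 1.74), which restrains resection, and PRKDC (1.44 and 1.28), the DNA-dependent kinase, were higher, and the nuclease DCLRE1C was lower (-1.10 and -0.91). Nucleotide excision partners had 5 higher and 3 lower of 11 in PG-haESC and 5 and 2 in ICSI ESC. RPA3, of the single-strand binding complex, was higher (2.05 and 2.00), and the damage recognition genes DDB2 (-2.27 and -1.79) and XPA (-1.41 and -1.63) were lower.

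Translesion synthesis and direct reversal had 3 higher and 2 lower of 9 in PG-haESC and 3 higher and 3 lower in ICSI ESC. The shares over all genes tested were 23.0% higher and 17.3% lower in PG-haESC, and 22.6% and 17.0% in ICSI ESC. MAD2L2, a subunit of polymerase zeta that also acts in shieldin, was higher by 3.68 and 3.75, while the catalytic subunit REV3L was lower (-1.39 and -1.15). POLK, a bypass polymerase, changed by -2.23 in PG-haESC and was at least 4.62-fold lower in ICSI ESC. The mismatch partners PMS1 and PMS2, of the MutL kind, were called in PG-haESC, at 0.74 (adjusted p = 0.0459) and -1.23 (adjusted p = 0.0202), and not in ICSI ESC.

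Between the stem cell groups 1 of these 74 genes was called, CETN2, a partner of XPC that also serves in centrioles, and it is X-linked. Its signal was 5919, 5616, 6646, 6061 and 9118 in PG-haESC, 2711, 3881 and 3712 in ICSI ESC and 3651 and 3595 in the fibroblasts. The log2 change was 1.02 (adjusted p = 0.0477). The other X-linked repair genes on these lists, APEX2 and BRCC3, had changes of 0.73 (adjusted p = 0.693) and 0.73 (adjusted p = 0.178). The autosomal helicase WRN had 0.83 (adjusted p = 0.0772) and was lower in ICSI ESC than in the fibroblasts (-0.84, adjusted p = 0.0107).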

How the data were processed

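Per the labels' protocols, TRIZOL was used for extraction and a GeneChip 3' IVT Express kit for biotin labelling. The deposited values are linear signal intensity, made by the authors with MAS5 per the submitters' processing notes, of unstated release. The mean signal without the highest and lowest 2% of probe sets was 500 on every array, and array medians ran from 76.8 to 133. Precision is limited by how many arrays there were.

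Of 52865 probe sets, 158 were controls and not used, and 34139 passed the filter, a signal over the array median on at least 2 arrays. Symbols came from the platform annotation: 24956 probe sets had 1 symbol, 361 several and 27390 none. A probe set shared by SAPCD1 and MSH5 was left out. The X chromosome was read from T2T-MFA8v1.1. Log2 signal was fitted with limma 3.58.1 (R 4.3.3): group means over all 10 arrays, line as a random block (correlation 0.286), variance trend, moderated two-sided tests with 7 residual and 5.37 prior degrees of freedom, and Benjamini-Hochberg adjustment over all probe sets tested. Because of the block, a fitted change need not equal the ratio of geometric means. On simulated data with 2-fold and 4-fold changes, 19% and 53% were recovered for PG-haESC against ICSI ESC. Against fibroblasts 12% and 41% were recovered for PG-haESC and 8% and 42% for ICSI ESC. There were 6, 1 and 1 false calls. Each simulation changed 200 of the 34139 probe sets, far fewer than the 33.0% and 32.7% called against the fibroblasts. The recovered shares therefore do not give the power of the fibroblast comparisons.

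The members, roles and lists were chosen with earlier results of these data known. Genes were named by rule: the checkpoint kinases, BRCA1, BRCA2, RAD51B, RAD51C, XRCC3, FANCB, FANCD2 and FANCI; the 5 smallest p-values between the stem cell groups; in each fibroblast comparison the 8 largest called changes in each direction and the 2 smallest p-values of each role; and up to 4 per list of other repair genes. Promoters and proteins were not used here, and some genes are not reported here. The alternatives are in the closing section.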

Additional observations from a re-analysis of the deposited data

Results flagged for a closer look

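In 6 of 48 repair genes (12.5%) 1 PG-haESC array stood apart from the other 4 of its group. The gap to the nearest array was over 0.71 of the range of the 5 log2 signals. That limit is set for about 1 gene in 20 among independent arrays, and these are not independent, since 4 are of line MPH1. The share over all genes was not counted, so the 6 genes are a description only. PG-haESC array 2 was the low array for ERCC2, at 158 against 274 to 332, for RAD23B, at 9327 against 11084 to 11765, and for RAD54L, at 307 against 416 to 471. This array has the highest passage of its group, 11, and the highest fibroblast marker sum of its group, 76710.3. PG-haESC array 3 was high for ERCC6L, at 4220.2 against 2896 to 3197, and low for PARP8, at 869 against 977 to 1008. It has the lowest fibroblast marker sum of its group, 10557. PG-haESC array 5, of line MPH2, was low for ERCC6, at 198 against 308 to 362. The part of passage, line or fibroblast transcripts in these values was not tested.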

How the results depend on the processing

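Between PG-haESC and ICSI ESC the count of repair genes called was 0, and it was 1, ERCC6L each time, with arrays as independent samples, the description code as the block, an offset of 32 before log2, quantile normalization, no filter on dim probe sets, passage in the model, probe sets of a gene averaged, or low signals raised to the array median. It was 0 to 0 with 1 array left out. Against the fibroblasts the count of 25 in PG-haESC ran from 17 (arrays averaged per line) to 29 (only the groups compared) and that of 26 in ICSI ESC from 19 (averaged per line) to 28 (independent arrays), and each ran from 20 to 29 with 1 array left out. Under every alternative run, 15 of the 25 and 16 of the 26 genes remained called, among them CHEK1, CHEK2, ERCC6L, FANCD2, FANCI, MSH6, PARP1, RAD51AP1, XRCC5 and XRCC6. Averaging per line also ended the PG-haESC calls of BRCA1 (adjusted p = 0.062), RAD23B (0.0641) and XRCC4 (0.059). Passage as a covariate ended those of BRCA2 in PG-haESC and ICSI ESC (0.0621 and 0.0923) and RAD23B in PG-haESC (0.0639), and the cause was not tested. Of 3402 values of single genes under alternatives, 3286 kept their side of the threshold, 78 lost it, 38 gained it and none called in the main analysis changed sign. No paired analysis was possible because no line occurs in more than 1 group. The files hold no detection calls, so a signal near the array median sets no lower limit on expression.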
